A study of Mus musculus with 3 samples.

Results

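The replication-dependent histone genes were taken as every gene whose symbol begins with Hist1h, Hist2h, Hist3h or Hist4h, which gave 69 rows and 68 distinct symbols among the 27998 genes of the tables, because Hist2h2bb stood on 2 rows. By the histone type in the symbol they were 6 H1, 19 H2A, 19 H2B, 12 H3 and 13 H4 genes. In the gene annotation Hist1h2al is a processed pseudogene and 1 of the Hist2h2bb rows is a long noncoding RNA, Gm42743. Both were kept as members. Of the 69, 55 belong to the Hist1 cluster, 11 to Hist2, 2 to Hist3 and 1 to Hist4. They were measured in single cells of dorsal skin from male C57BL/6 mice aged 7 to 9 weeks. The animals received full-thickness biopsies of 1 by 0.5 cm on the back in telogen, the resting phase of the hair cycle. Tissue was taken from non-lesional dorsal skin, from the wound bed 2 days after wounding and from the wound bed 7 days after wounding, and was digested with collagenase D and DNase1. Each of these 3 groups is 1 library. How many animals went into a library is not stated in the sources used. No difference between libraries has a replicate check, so no test was made, and the 95% intervals below cover counting error only.

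Nucleosomes wrap DNA around an octamer of the core histones H2A, H2B, H3 and H4, and the linker histone H1 binds where DNA enters and leaves the particle. Replication-dependent genes supply these proteins while DNA is copied in S phase, and their transcription is driven by the coactivator NPAT. Their mRNAs classically end just past a stem-loop bound by SLBP instead of in a poly(A) tail, although some of the genes also make polyadenylated transcripts. The libraries were made with a 3′ kit, a chemistry that captures RNA by its poly(A) tail, so a level here is the level of captured transcripts.

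The 3′ stem-loop was searched as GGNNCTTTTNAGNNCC on the sense strand of the GENCODE M21 transcripts. It was found in 42 of the 67 members matched by gene identifier, against 89 of all 55450 genes (0.160%). The following stem-loops are printed 5′ to 3′ with the motif in capitals, because these genes cover both kinds of behaviour described below, those with far more captured transcript in dividing cells and those without.
Hist1h2ap: aaaaaaaGGCTCTTTTCAGAGCCatc
Hist1h2ae: aaacaaaGGCTCTTTTCAGAGCCattcact
Hist1h3c: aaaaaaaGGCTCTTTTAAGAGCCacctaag
Hist1h4i: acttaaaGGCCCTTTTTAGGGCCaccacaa
Hist1h4d: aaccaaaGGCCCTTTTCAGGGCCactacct
Hist1h1e: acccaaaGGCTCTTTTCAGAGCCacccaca
Hist1h1c: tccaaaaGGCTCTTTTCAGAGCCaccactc
Hist3h2a: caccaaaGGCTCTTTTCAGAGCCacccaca
The form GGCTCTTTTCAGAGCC was the most frequent, in 24 members of the H1, H2A, H2B and H3 types. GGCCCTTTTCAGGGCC was carried by 7 members, all H4 genes, and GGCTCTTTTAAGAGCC by 6. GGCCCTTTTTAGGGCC was carried by Hist1h4i and Hist2h4, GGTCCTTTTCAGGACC by Hist1h4b and Hist1h4j, and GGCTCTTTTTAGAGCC by Hist2h2ac. The annotated transcript ran 3 bases past the motif in Hist1h2ap, 74 in Hist1h3c, 151 in Hist1h2ae, 330 in Hist1h4i, 770 in Hist1h4d, 840 in Hist1h1c, 1153 in Hist1h1e and 1643 in Hist3h2a. No match was found in the annotated transcripts of Hist1h2bc and Hist1h1b, which says only that these letters are not in those models. On GRCm38, Hist1h2ap lies at chr13:21833026-21833507, Hist1h2ae at chr13:23570517-23571220, Hist1h1b at chr13:21779883-21780625, Hist1h1c at chr13:23738808-23740367, Hist1h1e at chr13:23620629-23622558, Hist1h2bc at chr13:23684199-23692908 and Hist3h2a at chr11:58954685-58956830. The tables count reads per gene and do not say where in a gene a read fell.

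Histone genes resemble each other, and this bears on which member a read is counted for. Of the members, 29 shared more than 50% of their transcript's 75-base runs with another gene, and 6 shared none. The share was 92.6% for Hist1h2ap, 34.4% for Hist1h2ae, 27.1% for Hist1h2bc, 6.66% for Hist1h1c and 0 for Hist1h1b. The level of Hist1h2ap is therefore uncertain as to gene. Overlaps add to this, and 8 members, some of them among the 29, overlap a neighbour on the same strand, among them Hist1h1e with Hist1h2be and Hist3h2a with Trim17.

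The libraries held 123088680, 138046172 and 102345327 UMIs (unique molecular identifiers, 1 per captured RNA molecule) in non-lesional skin, day 2 and day 7. Filters on genes, mitochondrial UMIs and likely doublets left 9449, 7440 and 4930 cells, the median cell holding 9437, 7998 and 11004 UMIs, and 14 to 24 barcodes were shared by each pair of libraries. The unit of a level is CPM, a gene's UMIs divided by all UMIs of the cells summed and multiplied by 1000000. Cells were sorted into classes by marker genes, and the largest class in each library was fibroblast-like, with 6631, 4157 and 2693 cells. The dendritic-like class (122, 542 and 333 cells) and the T, NK or innate lymphoid-like class (433, 178 and 682 cells) also passed the minimum of 50 cells in each library. The fibroblast-like cells of the libraries lay in different clusters. At day 2, 2444 cells lay in a cluster led by Saa3 and 1673 in one led by Thbd, which held 5 and 0 cells of non-lesional skin and 16 and 3 of day 7. At day 7, 1534 cells lay in a cluster led by Prss35, which held 0 non-lesional and 3 day 2 cells, and the largest non-lesional clusters, led by Wfdc12 and Smpd3 with 2221 and 1687 cells, held 5 and 0 day 2 cells. A difference between libraries within this class is therefore also one between clusters. All 10 fibroblast markers were detected in these cells in every library, and their summed level was 141961, 32755 and 76968 CPM. Neutrophil markers stood at 394, 195 and 80.8 CPM in the same cells, keratinocyte markers at 144, 12.3 and 42.8 CPM, monocyte or macrophage markers at 50.5, 28.0 and 20.6 CPM, and erythroid markers at 29.6, 49.6 and 199 CPM, and their part in the results was not tested.

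The kept cells held 238206 UMIs of the members, and a handful of genes made up most of them. H2A genes held 48.0% of these UMIs, H1 genes 19.7%, H2B genes 15.3%, H4 genes 9.79% and H3 genes 7.13%. Hist1h2ap, an H2A gene, alone held 33.2%, and the 10 most abundant members held 83.9%. After Hist1h2ap with 79033 UMIs came Hist1h2bc, an H2B gene, with 29003, the H1 gene Hist1h1c with 21769, Hist1h2ae with 18857, Hist1h1e with 11093, Hist1h1b with 10231, Hist1h4i with 9217, Hist1h4d with 9151, Hist1h3c with 7103 and Hist1h2ab with 4433. By cluster, Hist1 members held 94.9% of the UMIs. At least 10 UMIs were found for 63 members. The other 6 were Hist1h2al with 6 UMIs, Hist1h2aa with 4, Hist2h2aa2, Hist1h2bq and Hist1h2ba with 1 each, and Hist1h2br with 0.

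Whether histone transcripts differed between unwounded skin and the wound was asked first over all kept cells. The members summed to 264.7 CPM in non-lesional skin, 1089.7 CPM at day 2 and 839.9 CPM at day 7. Day 2 was 4.12 times non-lesional skin (4.06 to 4.17) and day 7 was 3.17 times. A member was counted as higher or lower where the libraries were at least 2-fold apart on the scale of CPM + 5 with at least 10 UMIs in the pair. By that rule 11 of 63 members were higher at day 2 than in non-lesional skin, against 7.56% of all genes, 11 of 62 were higher at day 7, against 5.91% of all genes, and 1 of 63 was higher at day 7 than at day 2, against 3.92% of all genes. The mix of cell types differed between the libraries, so the classes were then taken apart.

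In fibroblast-like cells the members summed to 147 CPM in non-lesional skin, 1120.2 CPM at day 2 and 809.8 CPM at day 7. The day 2 level was 7.61 times that of non-lesional skin (7.45 to 7.76), the day 7 level 5.50 times (5.38 to 5.62), and day 7 stood at 0.723 of day 2 (0.716 to 0.730). At day 2, 13 of 62 members were higher than in non-lesional skin and 0 were lower, against 10.5% of all genes higher and 6.75% lower, and the median log2 difference was 0.43 over the members and 0.04 over all genes. At day 7, 15 of 60 members were higher and 0 lower, against 7.57% of all genes higher and 4.01% lower, with medians of 0.52 and 0.12. Many members have so few UMIs that the added 5 CPM holds their difference under 2-fold. With 1 CPM added instead, 35 members were higher at day 2, against 16.7% of all genes, and 39 at day 7, against 15.1% of all genes.

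On the scale of CPM + 5 the widest differences from non-lesional skin were in the H2A genes Hist1h2ap and Hist1h2ae. Hist1h2ap was at 2.55 CPM in fibroblast-like cells of non-lesional skin, 545 CPM at day 2 and 158 CPM at day 7. Hist1h2ae was at 1.12, 97.0 and 74.4 CPM, and Hist1h2ab at 0.235, 22.0 and 19.0 CPM. All 3 were lowest in non-lesional skin and highest at day 2, and Hist1h2ae and Hist1h2ab lay closer to their day 2 level at day 7 than Hist1h2ap did. At day 2 Hist1h2ap was 213 times its non-lesional level (184 to 249), Hist1h2ae 87.0 times (69.5 to 111) and Hist1h2ab 93.8 times (57.7 to 164). Hist2h2aa1 was at 0.866, 7.51 and 4.56 CPM, and was 8.68 times higher at day 2. The H2A gene of the Hist3 cluster, Hist3h2a, differed from these: it was at 7.89, 7.16 and 17.6 CPM, 0.907 times at day 2 (0.813 to 1.01) and 2.23 times at day 7 (2.02 to 2.47). Of the H2A genes, 5 of 16 were higher at day 2, against 10.5% of all genes, and 4 of 14 at day 7, against 7.57% of all genes.

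In fibroblast-like cells the leading H3 and H4 genes were also higher in the wound, from low levels in unwounded skin. Hist1h3c had 0.0587 CPM in fibroblast-like cells of non-lesional skin, from 4 UMIs, 39.2 CPM at day 2 and 26.8 CPM at day 7. Its day 2 ratio of 668 has an interval of 261 to 2451, because of those 4 UMIs. Hist1h3e was at 0.851, 13.2 and 13.1 CPM. The H4 gene Hist1h4i was at 1.48, 46.9 and 33.7 CPM, 31.7 times higher at day 2 (26.0 to 38.9), and Hist1h4d was at 5.97, 42.5 and 35.5 CPM, 7.12 times higher (6.43 to 7.89). For these 4 genes both wound libraries lay above non-lesional skin. Day 2 was the highest for 3 of them, and Hist1h3e was level between the wound libraries. Of the H3 genes 3 of 12 were higher at each time, and of the H4 genes 2 of 13, against 10.5% of all genes at day 2 and 7.57% at day 7, so the H4 count is near that share at day 2. Other members of these types lay the other way: Hist4h4, the only gene of its cluster, was at 1.64, 0.629 and 1.40 CPM, with day 2 at 0.383 of non-lesional skin (0.281 to 0.519). The H3 gene Hist2h3c1 was at 0.983, 0.585 and 1.77 CPM.

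The linker histone genes fell into different patterns in fibroblast-like cells. There Hist1h1b stood at 2.30 CPM in unwounded skin, 35.9 CPM at day 2 and 45.5 CPM at day 7. That is 15.6 times higher at day 2 (13.3 to 18.4) and 19.8 times higher at day 7. Hist1h1c was at 35.9, 42.7 and 93.8 CPM, 1.19 times at day 2 (1.13 to 1.25) and 2.61 times at day 7 (2.50 to 2.74). Hist1h1e was at 24.2, 31.5 and 37.8 CPM, 1.30 times at day 2 (1.23 to 1.38) and 1.56 times at day 7. In fibroblast-like cells of unwounded skin Hist1h1b was thus low while the other 2 were plainly present, and all 3 were highest at day 7. Other classes differed, and dendritic-like cells of unwounded skin held Hist1h1b at 82.7 CPM, from 65 UMIs. The H2B gene Hist1h2bc had the course of Hist1h1c, at 47.8, 67.2 and 132 CPM, 1.41 times at day 2 (1.35 to 1.47) and 2.77 times at day 7 (2.66 to 2.89). Of the H1 genes 2 of 5 were higher at day 2 and 4 of 5 at day 7, and of the H2B genes 1 of 16 and 2 of 16, against 10.5% and 7.57% of all genes, so the H2B counts are near those shares.

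Between the 2 wound libraries, 1 of 63 members was higher at day 7 in fibroblast-like cells, Hist1h1c, against 3.31% of all genes. In the same cells 1 was lower, Hist1h2ap, against 1.57% of all genes. Hist1h1c was 2.20 times its day 2 level (2.12 to 2.28). Hist1h2ap at day 2 was 3.45 times its day 7 level (3.39 to 3.52). Hist1h2bc was 1.97 times and Hist3h2a 2.46 times their day 2 levels, short of 2-fold once 5 CPM were added. The make-up of the histone signal moved with these genes. H2A genes held 10.5% of member UMIs in fibroblast-like cells of non-lesional skin, 63.2% at day 2 and 36.9% at day 7. The share of H1 genes was 43.1%, 11.2% and 23.9%, and that of H2B genes 34.9%, 8.63% and 20.1%.

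Fibroblast-like cells were next split by whether they held a UMI of Top2a, the topoisomerase that untangles DNA and is most abundant in late S, G2 and M phase. A Top2a UMI was found in 0.739% of these cells in non-lesional skin, 52.2% at day 2 and 26.5% at day 7, that is in 49, 2172 and 713 cells. Cells with Top2a were deeper, with medians of 10975, 33322 and 37889 UMIs against 9383, 19622 and 21449 without. The members summed to 479.5 CPM with and 144 CPM without Top2a in non-lesional skin, to 1589.8 and 262 CPM at day 2, and to 1498 and 336 CPM at day 7. The ratio was 3.34 (2.99 to 3.71), 6.08 (5.96 to 6.20) and 4.45 (4.37 to 4.54). With each cell thinned to 5000 UMIs, so that both sides had the same depth per cell, it was 2.97, 4.998 and 4.57. Shallower cells were left out, and the split was still the one made on all UMIs. The part of depth in which cells showed a Top2a UMI was thus not tested. The non-lesional ratio rests on few cells, since 8 of the 49 also held Rrm2, a gene of S phase, and stood at 1363 CPM, while the other 41 stood at 171 CPM. With Rrm2 in place of Top2a it was 1.70. The 49 cells held fibroblast markers at 77473 CPM against 142653 CPM in the rest and keratinocyte markers at 268 against 143 CPM, and the part of these in the ratio was not tested.

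In day 2 fibroblast-like cells 20 of 62 members were higher with Top2a than without and 0 were lower, against 1.57% of all genes higher and 0.0661% lower. At day 7 it was 22 of 60, against 1.94% of all genes, and in non-lesional skin 11 of 32, against 4.12% of all genes. In either 0 were lower, against 1.09% of all genes at day 7 and 0.992% in non-lesional skin, so the counts of 0 lower are near those shares. The non-lesional count was 2 of 8 with cells thinned to 1000 UMIs, 0 of them among the 11, against 13.8% of all genes. With Rrm2 in place of Top2a it was 3 of 32, against 0.347% of all genes. The day 7 count was 14 of 20 when thinned to 1000 UMIs, against 2.99% of all genes. With 1 CPM added, 35 members were higher at day 2, against 2.54% of all genes, and 38 at day 7, against 2.99% of all genes. The median log2 difference was 0.69, 0.42 and 0.56 over the members in non-lesional skin, day 2 and day 7, and 0.08, 0.00 and 0.00 over all genes. By type at day 2, 4 of 5 H1, 7 of 16 H2A, 2 of 16 H2B, 5 of 12 H3 and 2 of 13 H4 genes were higher. The split is the one by which the genes were looked at, and it compares cells of 1 library, which are not replicates.

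Hist1h2ap in day 2 fibroblast-like cells was at 823 CPM with Top2a and 37.1 CPM without, a ratio of 22.2 (21.1 to 23.4). Hist1h2ae was at 147 and 5.26 CPM, a ratio of 28.0 (24.4 to 32.2). Hist1h1b, a linker histone gene, was at 54.3 and 2.30 CPM, a ratio of 23.6 (19.2 to 29.3). These 3 genes were thus mainly a signal of the cells with Top2a. Hist1h2ab had a ratio of 22.4, Hist1h4d of 9.69, Hist1h3c of 9.63, Hist1h3e of 8.07, Hist1h1e of 7.74 (6.78 to 8.86) and Hist1h4i of 4.44 (4.08 to 4.85). At day 7 the ratios were 45.5 for Hist1h2ap (40.9 to 50.7), 47.6 for Hist1h2ae, 36.9 for Hist1h1b, 44.5 for Hist1h2ab, 28.2 for Hist1h3c, 5.48 for Hist1h1e and 5.91 for Hist1h4i. In non-lesional skin, where only 49 fibroblast-like cells had Top2a, Hist1h2ae was at 51.1 and 0.578 CPM, Hist1h1b at 52.5 and 1.77 CPM and Hist1h2ap at 58.0 and 1.96 CPM.

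A few members were as high or higher in cells without Top2a. Hist1h2bc at day 2 was at 49.0 CPM with and 100.5 CPM without Top2a, a ratio of 0.488 (0.466 to 0.510), and at day 7 at 117 and 143 CPM. Hist1h1c was at 41.3 and 45.4 CPM at day 2, a ratio of 0.910 (0.859 to 0.965), and at 110 and 82.6 CPM at day 7. Hist3h2a was at 7.51 and 6.52 CPM at day 2, and the interval of its ratio of 1.15 includes 1 (0.993 to 1.34). The H3 genes of the Hist2 cluster were at low level and also below 1, with ratios of 0.635 for Hist2h3c1 and 0.456 for Hist2h3c2. Taking plain ratios over the members with at least 50 UMIs, 44 were at least 2 at day 2, against 4.1% of all genes, 3 lay from 1 to 2, and 4 lay under 1, against 49.1% of all genes. The 3 were Hist3h2a, Hist1h4a and Hist4h4, and the 4 were Hist1h2bc, Hist1h1c, Hist2h3c1 and Hist2h3c2.

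The stem-loop motif was found in 30 of the 44 members, 2 of the 3 and 3 of the 4. Of the 44, 42 had an annotated transcript, and several models without the motif were short, such as Hist1h2bl at 381 bases and Hist1h2ai at 393. Absence from a model does not show that a gene lacks the stem-loop, so these counts cannot say whether it separates the sets. The length annotated past the motif had a median of 54 bases in the 30, with a range of 3 to 4884 and 13 over 100, a median of 2044 in the 2, and a median of 840 in the 3, with a range of 377 to 1167. Hist1h1e and Hist1h1c show how far the ranges overlap, with 1153 and 840 bases past the same 16 letters and day 2 ratios of 7.74 and 0.910. Annotated ends were not checked against reads here.

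The wound and non-lesional libraries were then compared among fibroblast-like cells of like Top2a status, a comparison added after the first results were seen. Among cells with Top2a the summed level was 3.32 times higher at day 2 than in non-lesional skin and 3.12 times higher at day 7. In these cells 9 of 62 members were higher at day 2, against 10.1% of all genes, and 14 of 59 at day 7, against 9.42% of all genes, so the day 2 count stood near that of genes at large. Hist1h1b with Top2a was at 52.5, 54.3 and 107 CPM and Hist1h1e at 63.6, 45.5 and 73.3 CPM, while Hist1h2ap was at 58.0, 823 and 375 CPM. Among cells with Top2a, Hist1h1b and Hist1h1e lay near or under their non-lesional level at day 2, whereas Hist1h2ap lay far above it. The non-lesional side rests on 49 cells, with 38 UMIs of Hist1h1b, 46 of Hist1h1e and 42 of Hist1h2ap. Of these cells 8 also held Rrm2, a gene of S phase, against 1608 of 2172 at day 2. The 2 sides were thus not matched beyond a Top2a UMI, and the part of this was not tested.

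Among cells without Top2a the summed level was 1.82 times non-lesional skin at day 2 (1.77 to 1.87) and 2.34 times at day 7. At day 2, 3 of 46 members were higher, against 8.85% of all genes, namely Hist1h2ap, Hist1h4i and Hist1h3c. Hist1h2ap was 18.9 times and Hist1h4i 10.01 times higher, at 37.1 and 14.6 CPM. Neutrophil-like cells of the same library, taken below as a gauge of free RNA, held them at 14.4 and 19.7 CPM. The median neutrophil-like cell held 886 UMIs, against 19622 in these fibroblast-like cells, so the CPM of the 2 classes are not alike as background. The part of free RNA in both levels was not tested. Hist1h1e was the 1 member lower at day 2, against 6.5% of all genes. It was at 23.8 CPM in non-lesional skin, 5.88 CPM at day 2 and 13.4 CPM at day 7, so that non-lesional skin was 4.05 times day 2 (3.53 to 4.66). At day 7, 3 of 47 members were higher, against 5.81% of all genes, and these were Hist1h4i, Hist1h2bc and Hist1h1c. Hist1h2bc was 2.10 times its non-lesional level at day 2 and 3.00 times at day 7, and Hist1h1c was 2.31 times at day 7. Both counts are near the share of all genes. The members higher at day 7 include Hist1h2bc and Hist1h1c, which at day 2 were lower with Top2a than without, at ratios of 0.488 and 0.910.

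Fibroblast-like cells were also sorted by UMIs of Rrm2, a ribonucleotide reductase subunit made in S phase, and of Top2a. At day 2 the members summed to 266.5 CPM in 1588 cells with neither, 247 CPM in 397 cells with Rrm2 only, 1805 CPM in 1608 cells with both and 712 CPM in 564 cells with Top2a only. At day 7 the same sets held 337, 335, 1973 and 509 CPM. In non-lesional skin they held 143, 154, 1363 and 171 CPM, of which the set with both is 8 cells. Cells with both genes were highest in each library, and cells with Rrm2 only lay near those with neither. The sets also differed in depth, with medians at day 2 of 18196, 25277, 36014 and 25081 UMIs in the same order. Whether a cell shows a UMI of either gene depends on depth, so the sets are not phases of the cell cycle as such, and the part of depth was not tested.

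**Figure D1:**
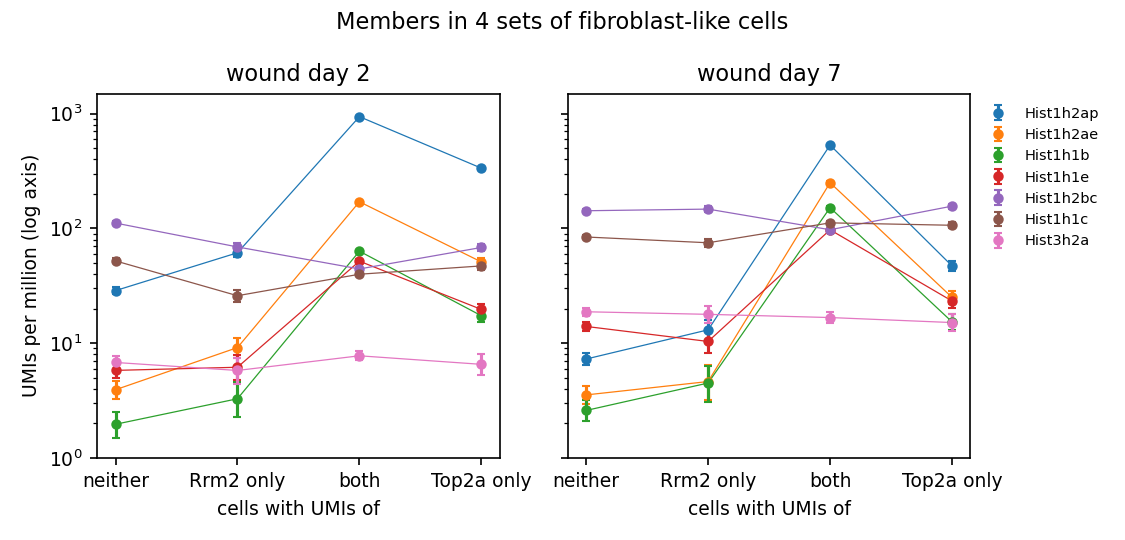
Level of named members in fibroblast-like cells sorted by Rrm2 and Top2a UMIs, in CPM on a log axis, with Poisson 95% intervals. At day 2 Hist1h2ap stands at 28.7 CPM with neither, 61.3 CPM with Rrm2 only, 942 CPM with both and 335 CPM with Top2a only, and Hist1h2bc is highest with neither.

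Hist1h2ap had 28.7 CPM with neither gene, 61.3 CPM with Rrm2 only, 942 CPM with both and 335 CPM with Top2a only at day 2. Hist1h2ae had 3.92, 9.15, 171 and 51.0 CPM, Hist1h1b 1.96, 3.27, 63.3 and 17.3 CPM, and Hist1h1e 5.78, 6.16, 51.8 and 19.7 CPM. These 4 genes were highest in cells with both. At day 7 the drop from both to Top2a only was steeper, from 533 to 47.1 CPM for Hist1h2ap and from 152 to 15.3 CPM for Hist1h1b. Hist1h2bc ran the other way at day 2, at 111, 68.9, 44.3 and 68.2 CPM, and Hist1h1c was at 52.1, 25.9, 39.9 and 47.1 CPM. Hist3h2a varied little, at 6.78, 5.78, 7.75 and 6.53 CPM. Among day 2 cells with Top2a, those that also held Ccnb1, the cyclin of mitotic entry, had 1724 CPM of members and those without it 1387 CPM. At day 7 it was 1913 and 934 CPM. Cells with Ccnb1 were deeper, with medians of 37852 against 28270 UMIs at day 2 and 46037 against 30968 at day 7.

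The histone UMIs were gathered in few cells. The 10% of fibroblast-like cells with the most member UMIs held 46.9% of them in non-lesional skin, 59.4% at day 2 and 69.9% at day 7, and single cells held up to 92, 599 and 725 member UMIs. For Hist1h2ap the top 10% of cells held 67.4% at day 2 and 95.8% at day 7. With each cell thinned to 1000 UMIs, which left out 126, 52 and 45 shallower cells, 12.5%, 37.9% and 32.0% of fibroblast-like cells held a member UMI, against 58.9%, 90.6% and 89.1% unthinned. The thinned share with Hist1h2ap was 0.138%, 20.3% and 5.85%, against 1.81%, 49.96% and 23.7% unthinned, and that with Hist1h2bc was 4.69%, 6.75% and 10.7%, against 28.5%, 52.4% and 66.8% unthinned. Thinning left the order of the libraries as it was for these 2 genes.

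Neutrophil-like cells, which do not divide in tissue, served to gauge RNA free in the suspension. At day 2 they held Hist1h2ap at 14.4 CPM, 2.64% of the fibroblast-like level (1.78 to 3.77). Fibroblast genes stood higher there, with Col1a1 at 17.1%, Col3a1 at 12.1% and Dcn at 7.07% of their fibroblast-like level. A Hist1h2ap UMI was found in 1.37% of these cells unthinned and 1.24% thinned. The part of free RNA in levels of this order in other day 2 classes was not tested. Hist1h1c differed, at 96.0 CPM in neutrophil-like cells, 225% of its fibroblast-like level (194 to 259). Hist1h2bc stood at 62.9%, and the H2B gene Hist1h2be at 26.9 CPM from 56 UMIs, 692% of its fibroblast-like level. These 3 members were thus present in a class where Hist1h2ap was close to absent.

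**Figure D2:**
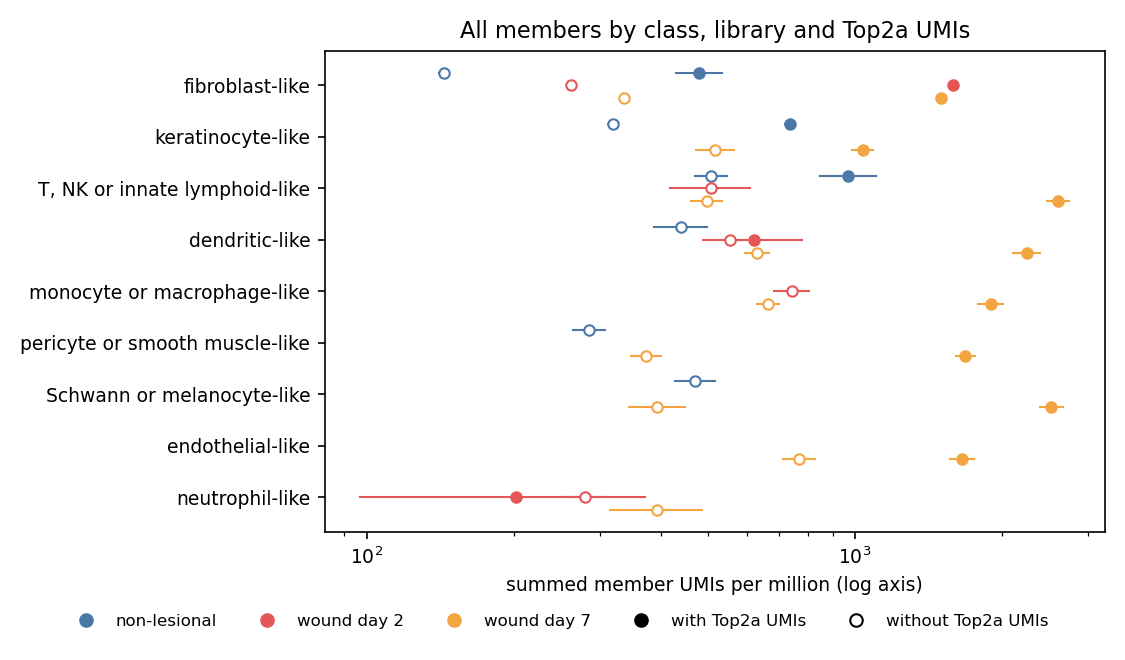
Summed member level in each class and library for cells with and without a Top2a UMI, in CPM on a log axis, with Poisson 95% intervals. In T, NK or innate lymphoid-like cells of day 7, for example, cells with Top2a stand at 2608 CPM and those without at 496 CPM.

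The difference by Top2a recurred in other classes. At day 7 the members summed to 2608 CPM with and 496 CPM without Top2a in T, NK or innate lymphoid-like cells. It was 2244 and 631 CPM in dendritic-like cells, 1895 and 664 CPM in monocyte- or macrophage-like cells, 1682 and 373 CPM in pericyte- or smooth muscle-like cells, 2522 and 393 CPM in Schwann- or melanocyte-like cells and 1657 and 767 CPM in endothelial-like cells. Keratinocyte-like cells of non-lesional skin held 735 and 319 CPM, a ratio of 2.30, with 10 of 47 members higher, against 1.77% of all genes. Of the classes with at least 20 cells on each side, neutrophil-like cells at day 2 were the exception, with 202 CPM with Top2a and 280 CPM without, and day 2 dendritic-like cells differed little, at 619.6 and 554 CPM. Classes also differed in which member led: Hist1h1c was at 468 CPM in monocyte- or macrophage-like cells and 250 CPM in dendritic-like cells at day 2, against 42.7 CPM in fibroblast-like cells.

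In dendritic-like cells, unlike fibroblast-like cells, most members that passed 2-fold at day 2 were lower. At day 2, 8 of 20 members were lower than in non-lesional skin, against 6.19% of all genes, and 2 were higher, Hist1h1c and Hist3h2a, against 13.3% of all genes. At day 7, 10 of 31 were higher than at day 2, against 2.63% of all genes. The share of dendritic-like cells with a Top2a UMI moved likewise, at 13.1%, 4.98% and 11.4%, and its part in the result was not tested. In T, NK or innate lymphoid-like cells 10 of 33 members were higher at day 7 than at day 2, against 10.1% of all genes, and in monocyte- or macrophage-like cells 8 of 22, against 10.4% of all genes.

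The balance between the 2 leading replication-coupled H2A genes differed by library. In fibroblast-like cells there were 2.29 UMIs of Hist1h2ap per UMI of Hist1h2ae in non-lesional skin (1.74 to 3.04), 5.62 in the day 2 library (5.51 to 5.73) and 2.12 in the day 7 library (2.05 to 2.19). Among cells with Top2a it was 1.14, 5.59 and 2.12, and among cells without it 3.38, 7.04 and 2.22. Outside fibroblast-like and erythroid-like cells it was 1.39 in non-lesional skin (1.27 to 1.52), 5.28 at day 2 (3.93 to 7.23, from 280 and 53 UMIs) and 2.29 at day 7 (2.14 to 2.46). The day 2 library thus had the highest ratio inside and outside the fibroblast-like class, and the intervals of day 2 and day 7 did not overlap. Fibroblast genes were also counted in other day 2 classes, as given for neutrophil-like cells, and their part in this ratio was not tested. Erythroid-like cells were left out because at day 2 they carried fibroblast markers at 26236 CPM. In day 7 classes the ratio ran from 1.41 to 3.78. Since 92.6% of Hist1h2ap is shared with other genes over 75-base runs, a library-wide difference in how reads were assigned cannot be told apart from a difference in transcripts.

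**Figure D3:**
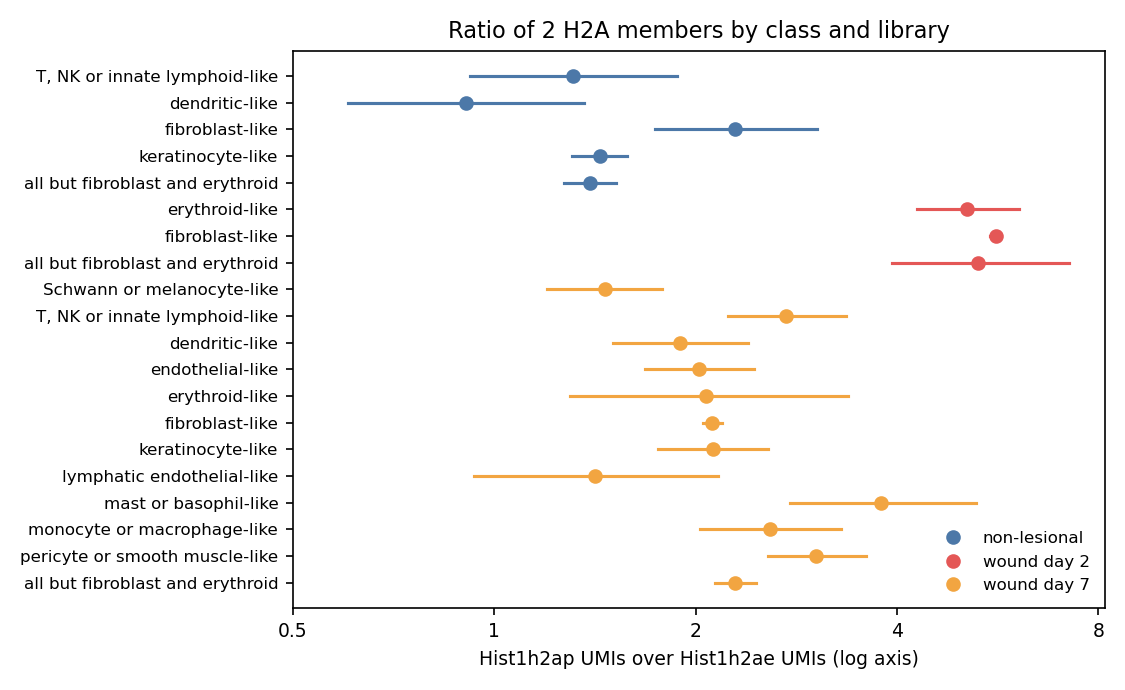
UMIs of Hist1h2ap per UMI of Hist1h2ae by library and class, on a log axis, with 95% intervals. The day 2 points lie at 5.62 for fibroblast-like cells and 5.28 for the classes other than fibroblast and erythroid, above the day 7 points at 2.12 and 2.29.

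Genes that work with the histones were read from 5 lists by the same 2-fold rule. The shares of all genes to set beside the counts are 10.5% higher and 6.75% lower at day 2, and 7.57% higher at day 7. S phase genes were higher in fibroblast-like cells at day 2 than in non-lesional skin for 22 of 24 and at day 7 for 18 of 24, and G2 and M phase genes for 20 of 20 at both times. Mcm5, a subunit of the replicative helicase, was 56.0 times higher at day 2, Rrm1 6.72 times and Pcna, the sliding clamp of DNA polymerase, 3.23 times. Of 16 histone chaperone genes, 9 were higher at day 2 and 5 at day 7. Chaf1a, a subunit of the CAF-1 complex that deposits H3 and H4 behind the replication fork, was 16.3 times higher at day 2, and Ssrp1, a subunit of the FACT complex, 4.75 times. Of 14 tested genes of histone mRNA processing 4 were higher at day 2 and 0 at day 7. Slbp, whose protein binds the stem-loop, had 51.9 CPM in non-lesional skin and 64.4 CPM at day 2, a ratio of 1.24, and Ncbp1 of the cap-binding complex was 3.18 times higher.

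Histone variant genes, which are expressed outside S phase as well, were read in fibroblast-like cells too. They gave 3 of 11 higher and 1 lower at day 2, and 4 higher at day 7. H2afz, which encodes H2A.Z, was at 413 and 753 CPM in non-lesional skin and day 2. H3f3a, which encodes H3.3, was at 947 and 355 CPM, a ratio of 0.375, and was the 1 lower. Cenpa, the centromeric H3, was 34.2 times higher. H3f3a therefore ran against the replication-dependent H3 genes Hist1h3c and Hist1h3e between these 2 libraries. Between day 2 fibroblast-like cells with and without Top2a, 2 of 11 variant genes, 7 of 16 chaperone genes, 19 of 24 S phase genes and 19 of 20 G2 and M phase genes were higher, Top2a itself among the last, and 0 of 14 processing genes, against 1.57% of all genes. Asf1b, an H3 and H4 chaperone, had a ratio of 4.62, Nasp of 2.11, H2afx of 3.15, H2afz of 1.79 and Slbp of 1.63. Slbp thus differed less by Top2a than Hist1h2ap, Hist1h2ae or Hist1h1b did.

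Because the H1 genes Hist1h1b and Hist1h1c differed so widely by Top2a, their promoters are shown with that of Hist1h2ae, as the 250 bases before the RefSeq start on GRCm38.p6, 5′ to 3′ in the direction of the gene. Capitals mark any match on either strand to 4 motifs. These are CCAAT of CCAAT boxes, TATAAA of TATA boxes, the octamer ATTTGCAT, and AAACACA, known as the H1 box.
Hist1h1b, chr13:21780626-21780875, minus strand: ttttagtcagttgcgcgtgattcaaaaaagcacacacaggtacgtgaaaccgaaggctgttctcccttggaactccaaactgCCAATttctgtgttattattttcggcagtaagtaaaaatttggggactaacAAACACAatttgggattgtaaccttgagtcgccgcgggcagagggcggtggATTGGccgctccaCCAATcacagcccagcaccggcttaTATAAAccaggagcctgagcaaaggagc
Hist1h1c, chr13:23738557-23738806, plus strand: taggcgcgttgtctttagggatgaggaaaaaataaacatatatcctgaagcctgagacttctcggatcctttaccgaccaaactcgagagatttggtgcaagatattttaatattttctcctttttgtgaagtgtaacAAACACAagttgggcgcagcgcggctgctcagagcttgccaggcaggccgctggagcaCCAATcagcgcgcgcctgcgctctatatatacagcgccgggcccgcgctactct
Hist1h2ae, chr13:23571221-23571470, minus strand: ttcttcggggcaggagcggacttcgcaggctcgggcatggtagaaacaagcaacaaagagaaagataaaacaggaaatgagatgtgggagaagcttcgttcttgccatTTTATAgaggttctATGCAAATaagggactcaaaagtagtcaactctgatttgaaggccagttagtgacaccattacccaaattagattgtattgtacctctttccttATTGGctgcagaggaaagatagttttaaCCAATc
Hist1h1b held 3 matches to CCAAT, 1 to TATAAA and 1 to AAACACA, and Hist1h1c held 1 to CCAAT, 0 to TATAAA and 1 to AAACACA. Hist1h2ae held 2 matches to CCAAT, 1 to TATAAA and 1 to ATTTGCAT. Both H1 promoters thus hold a CCAAT and an AAACACA match, although their ratios by Top2a at day 2 were 23.6 and 0.910.

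The 62 members matched to a RefSeq promoter had 61 distinct windows, since both rows of Hist2h2bb share 1 that is counted for each. Windows of some neighbouring H2A and H2B members also overlap, such as those of Hist1h2ag and Hist1h2bj. As either strand was searched, a single site can be counted for both. The H2A and H2B counts below are thus not counts of separate promoters. Over the 62, CCAAT was found in 51 (82.3%), against 33.9% of all 32851 promoters of the same length. It was in 6 of 6 H1, 17 of 17 H2A, 17 of 17 H2B and 8 of 10 H3 promoters, and in 3 of 12 H4 promoters. TATAAA was found in 29 (46.8%), against 12.4% of all. ATTTGCAT was found in 14 (22.6%), which were 7 H2A and 7 H2B members, both Hist2h2bb rows among them, against 1.60% of all. AAACACA was found in 9 (14.5%), against 6.25% of all, and in 5 of the 6 H1 genes. A match describes letters only. Hist1h2ap, Hist1h2bc, Hist1h3f, Hist1h3a, Hist2h4, Hist2h2be and Hist1h2al were not matched.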

How the data were processed

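Each deposited table gives whole UMI counts for every gene in each barcode that the authors' Cell Ranger run called a cell, on mm10. The submitters' processing notes name Cell Ranger 3.0.2 and Seurat 3.0, whereas version 5.0.0 stands in the tables per the file headers, which was not resolved. The sources used here do not give how reads matching several genes were treated. Per the labels, the kit was a v2 3′ kit.

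Barcodes with at least 200 genes and at most 10% mitochondrial UMIs were kept. The gene limit took out 192, 390 and 543 barcodes and the mitochondrial limit 368, 372 and 1632 in non-lesional skin, day 2 and day 7. Likely doublets were removed as the barcodes with the highest Scrublet scores, 848, 505 and 212 of them. The score's own threshold marked 375, 0 and 0. Cells were clustered without the members (scanpy 1.11.5, leidenalg 0.10.2, resolution 1, no integration across libraries) and classes were named from marker lists, with a minimum score of 0.25 that was set after the scores were seen. They are called "-like" for that reason. Classes with at least 50 cells in a library were used.

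UMIs were summed per class, library and Top2a status and scaled to CPM. Sums carry exact Poisson intervals, shares Clopper-Pearson intervals and ratios exact conditional binomial intervals, all at 95%. Cells are not replicates and each group is 1 library, so no test was made. Log2 differences used 5 CPM as pseudocount and genes with at least 10 UMIs in the pair. The members, the lists and the comparisons were chosen with earlier results of these data known. Members were named if among the 10 with the most UMIs, the most abundant of their type, or among the 4 highest or 4 lowest in a comparison with at least 50 UMIs, and from each other list the 3 most abundant genes and the 2 with the largest fold were eligible. Genes given for the neutrophil-like background and for list examples outside this rule were chosen after their values were seen.

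Alternatives were other filters (500 genes, 20% mitochondrial UMIs, no doublet removal), clustering at resolution 2 or with all genes, classes set cell by cell, thinning to 1000 or 5000 UMIs, a pseudocount of 1, TMM (edgeR 4.0.16 in R 4.3.3) and median-of-ratios scaling, and Mki67, Rrm2 or at least 2 Top2a UMIs in place of Top2a. Thinning kept the split by Top2a made on all UMIs. The comparison within Top2a status was added after the data were seen. On simulated counts for day 2 against non-lesional fibroblast-like cells, 200 of 27998 genes, drawn from the more abundant ones, were set 4-fold higher or lower. Of these 100% were recovered, and the same held for the split by Top2a at day 2. Recovery of genes with few UMIs was not checked. Python 3.11.15 was used, with scipy 1.17.1 for intervals, numpy 2.4.6, pandas 2.3.3 and, for plots, matplotlib 3.10.9.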

Additional observations from a re-analysis of the deposited data

Results flagged for a closer look

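Several members differed in opposite directions between classes under the same contrast, and none of these differences was tested, since each side is 1 library. All values are log2 differences of CPM + 5. Between day 2 and non-lesional skin, Hist1h1b was at -2.50 in dendritic-like cells, from 24 UMIs at day 2, and at 2.48 in fibroblast-like cells. Hist1h2ae was at -2.57 in dendritic-like and 4.06 in fibroblast-like cells, and Hist1h2ap at -1.53 and 6.19. The share of cells with a Top2a UMI was 13.1% and 4.98% in dendritic-like cells of non-lesional skin and day 2, and 0.739% and 52.2% in fibroblast-like cells, and its part in these values was not tested. Between day 7 and day 2, Hist1h2ap was at -1.76 in fibroblast-like cells and 3.11 in monocyte- or macrophage-like cells, where it went from 5 to 248 UMIs.

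Between cells with and without Top2a, Hist1h1e was at -1.12 in day 2 dendritic-like cells, from 1 UMI with Top2a, and at 2.88 in day 7 Schwann- or melanocyte-like cells. Hist1h2bc was at -1.22 in T, NK or innate lymphoid-like cells of non-lesional skin, from 4 UMIs with Top2a, and at 1.20 in those of day 7. Both differences were not tested.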

How the results depend on the processing

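Counts of members called 2-fold higher, over all kept cells and fibroblast-like cells, were within 1.5 times the first value in 96 of 119 alternatives, and the other 23 follow. Over every class and comparison it was 388 of 498. With 1 CPM added, the counts over all kept cells were 30 of 63 for day 2 and 31 of 62 for day 7 against non-lesional skin. The shares of all genes were 12.2% and 11.5%. For day 7 against day 2 the count was 3 of 63, against 9.65% of all genes. In fibroblast-like cells the counts were 35, 39 and 2 in the same order, against 16.7%, 15.1% and 7.21% of all genes. By Top2a they were 22 in non-lesional skin, 35 at day 2 and 38 at day 7. The shares of all genes were 10.4%, 2.54% and 2.99%. For day 7 against day 2 the count was 0 over all kept cells when thinned to 1000 UMIs, with TMM, and under median-of-ratios scaling. The shares of all genes were 6.32%, 2.93% and 2.89%. In fibroblast-like cells the count was 0 under these and when thinned to 5000 UMIs, against 6.82%, 2.55%, 2.48% and 4.66% of all genes. It was 3 of 60 with classes set cell by cell, against 2.78% of all genes. By Top2a in non-lesional skin it was 5 of 26 with classes set cell by cell, against 2.15% of all genes, and 3 of 32 with Rrm2 in place of Top2a, against 0.347%. When thinned to 1000 and 5000 UMIs it was 2 of 8 and 7 of 21, against 13.8% and 5.29%. With at least 50 UMIs it was 6 of 18, against 4.22%. By Top2a at day 7 it was 14 of 20 when thinned to 1000 UMIs, against 2.99% of all genes.

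Summed ratios over alternatives ran from 6.73 to 7.62 for day 2 and 4.14 to 5.64 for day 7 against non-lesional fibroblast-like cells, from 0.628 to 0.791 for day 7 against day 2, and by Top2a from 1.70 to 4.49 in non-lesional skin, 3.82 to 8.21 at day 2 and 4.11 to 5.84 at day 7. Of 864 alternative values of named members that were at least 2-fold apart at first, 833 still were. By Top2a in non-lesional fibroblast-like cells thinned to 1000 UMIs, Hist1h1e turned to -0.045 and Hist1h2ap to -0.246 on the log2 scale, and the cause was not tested. Scaling moved the median of all genes for day 7 against non-lesional skin in fibroblast-like cells from 0.12 to 0.01. No paired analysis was possible because each group is 1 library. Having 1 library per group limits these differences, and depth limits the members with few UMIs.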

Other observations

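The mast- or basophil-like cells of day 7, too few for the comparisons above, held 908 member UMIs in 27 cells. Of these UMIs 93.6% were in 5 cells, and 6 of the 27 cells had a Top2a UMI.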
